A study of Homo sapiens with 15 samples.

Results

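The 9 genes described here, DUSP1, DUSP4, DUSP5, DUSP6, SPRY1, SPRY2, SPRY4, SPRED1 and SPRED2, are feedback inhibitors of mitogen-activated protein kinase (MAPK) signalling, and they were chosen by name as dual-specificity MAPK phosphatases and members of the Sprouty and SPRED families. All 9 had a row among the 17272 genes of the deposited expression table, and 8 were among the 17046 genes tested after a filter on low values, which DUSP6 missed. The cells were LNCaP, a human prostate cancer cell line that depends on androgen and keeps features of luminal epithelium. All cells were first kept for 2 days in serum stripped of steroids with charcoal. In 10 libraries the cells had received 1 nM R1881, a synthetic androgen, with the solvent DMSO, and in 5 libraries they had received 1 nM R1881 with 2 µM enzalutamide, a drug that blocks androgen signalling. These numbers follow the sample labels, whereas the methods text gives them the other way round. Both groups carried the androgen, no library without it was analysed here, and all cells were harvested after 22 h. The comparison asks how the transcripts of these inhibitors differed with this blocker in cells of a single line under androgen.

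Growth factor receptors activate RAS, which drives the kinase cascade from RAF through MEK to ERK, while stress signals run through the related kinases JNK and p38. Dual-specificity phosphatases end the signal by removing the activating phosphates from these kinases, and Sprouty and SPRED proteins act upstream of them, between the receptor and RAF. Several of these inhibitors are themselves transcribed in response to ERK activity, so their transcripts are often read as a gauge of pathway output.

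The 250 bases upstream of the annotated start are shown for 4 members that differed between the treatments, namely the phosphatases DUSP1 and DUSP6, the Sprouty gene SPRY1 and the SPRED gene SPRED1, since the RNA levels of these genes are what was compared. The sequences are from RefSeq (GRCh38.p14), are written 5′ to 3′ on the strand of the gene, and have motif matches in capitals. The DUSP1 window, on the minus strand at chr5:172771196-172771445, held a cyclic AMP response element (CRE), TGACGTCA, with its first base at -125 from the start, and an E-box, CACGTG, at -108.
DUSP1: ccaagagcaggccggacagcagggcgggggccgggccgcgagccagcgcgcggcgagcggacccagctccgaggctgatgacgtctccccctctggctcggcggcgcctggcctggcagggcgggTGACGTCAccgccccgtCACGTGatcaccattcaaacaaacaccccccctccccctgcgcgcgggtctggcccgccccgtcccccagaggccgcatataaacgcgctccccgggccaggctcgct
The windows of DUSP6 (minus strand, chr12:89352502-89352751), SPRY1 (plus strand, chr4:123396545-123396794) and SPRED1 (plus strand, chr15:38252586-38252835) held no match to the motifs searched.
DUSP6: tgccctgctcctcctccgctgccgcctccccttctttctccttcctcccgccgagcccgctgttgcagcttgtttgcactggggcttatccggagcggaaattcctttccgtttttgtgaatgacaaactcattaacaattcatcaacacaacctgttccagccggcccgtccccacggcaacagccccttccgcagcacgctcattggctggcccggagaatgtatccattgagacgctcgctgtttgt
SPRY1: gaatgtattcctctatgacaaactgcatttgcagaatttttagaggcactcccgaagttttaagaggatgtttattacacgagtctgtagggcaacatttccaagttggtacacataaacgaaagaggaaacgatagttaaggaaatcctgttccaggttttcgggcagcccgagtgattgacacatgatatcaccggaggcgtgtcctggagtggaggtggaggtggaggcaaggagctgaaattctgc
SPRED1: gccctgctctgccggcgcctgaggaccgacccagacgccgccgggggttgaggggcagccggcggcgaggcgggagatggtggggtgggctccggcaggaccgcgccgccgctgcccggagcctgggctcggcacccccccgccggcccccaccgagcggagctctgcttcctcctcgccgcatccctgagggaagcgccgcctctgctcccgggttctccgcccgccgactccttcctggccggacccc
The search covered both strands of 11 windows of 300 bases (250 before and 50 after the start) of 7 members. DUSP4 and DUSP5 were not searched, so nothing can be read for their windows. The CRE was present in 1.85% of all 35116 windows of that length, the E-box in 7.26%, an AP-1 site, TGAGTCA, in 4.95%, an ETS site, CCGGAAGT, in 4.14%, an androgen response half-site, AGAACA, in 14.8%, and the CArG box in 1.29%. Beyond DUSP1, the half-site was matched once in each of 2 SPRY2 windows, at -38 and at -108, and the AP-1 site once in a SPRED2 window, at -6. None of these letters overlapped another motif, and a match describes the sequence only.

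Polyadenylated RNA was sequenced to between 15830745 and 24316740 reads on genes per library in the DMSO group, with a median of 23194075, and in the enzalutamide group to 21188661 to 25416052 reads, with a median of 21893693. Expression is given as deposited, in CPM (read counts scaled to a common library size). Of the tested genes 10660 differed between the treatments in limma (Benjamini-Hochberg adjusted p under 0.05), which is 62.5% of them, with 32.7% lower and 29.8% higher with enzalutamide. The androgen-induced genes FKBP5, KLK2 and TMPRSS2 fell from means of 1502, 463 and 850 CPM to 46.8, 15.2 and 71.5 CPM. Luminal markers were present, with KRT8 and KRT18 lower and FOLH1 and HOXB13 higher with enzalutamide, while CDH1 did not pass the test. Stromal markers moved with the treatment: COL1A1, COL3A1 and LUM, the 3 of 6 with a row, were all higher, and their summed level was 6.36 to 10.5 CPM with DMSO and 21.2 to 26.7 CPM with enzalutamide. KRT14, the only 1 of 3 basal markers with a row, summed to 0.706 to 1.44 CPM and 0 to 0.279 CPM, and none of 5 leukocyte markers was analysed here. The part of these markers in the results below was not tested, and in bulk RNA fewer cells of a type and less RNA per cell cannot be told apart. The library numbers in the labels run from 51 to 55 and 71 to 75 for DMSO and from 81 to 85 for enzalutamide, so a difference between number series and the treatment cannot be told apart.

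**Figure D1:**
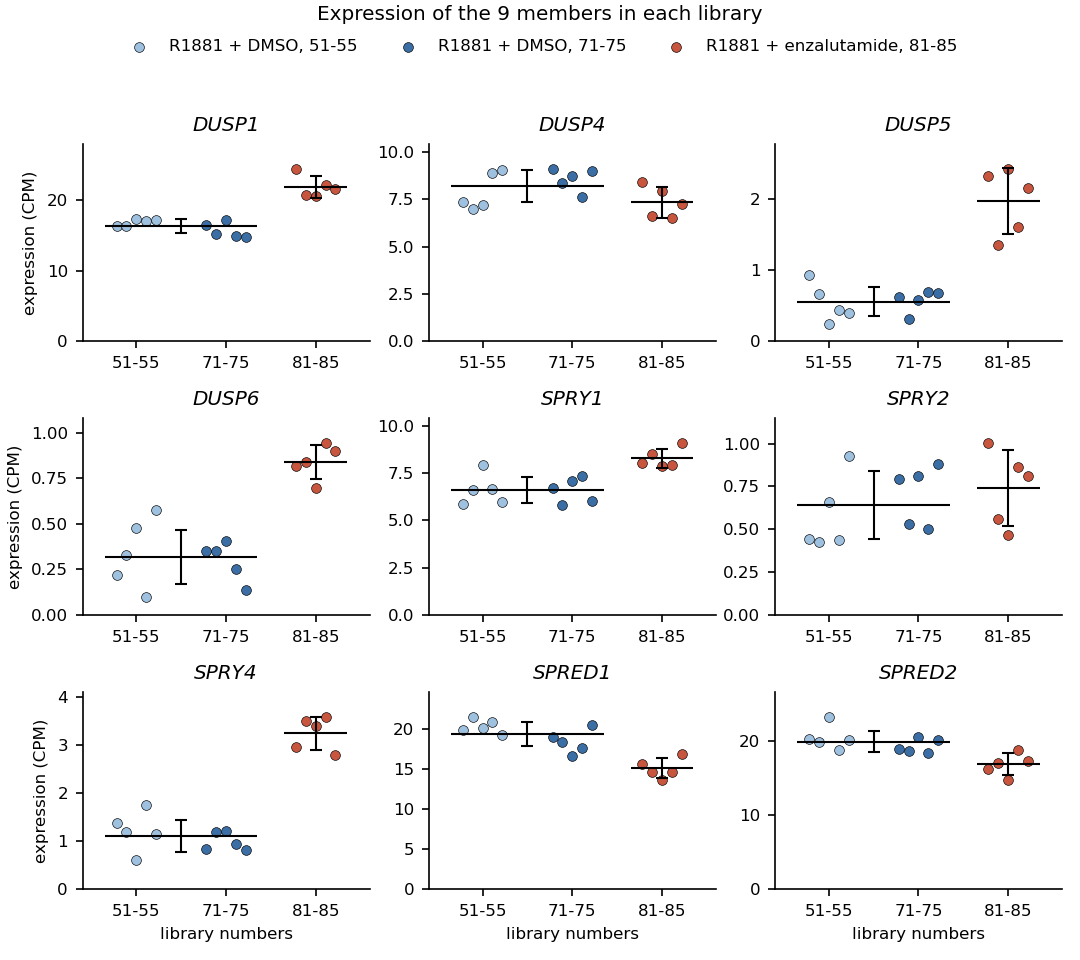
Expression (CPM, linear axes from 0) of the 9 genes in the 15 libraries, by library number, with R1881 + DMSO in light blue (51 to 55) and dark blue (71 to 75) and R1881 + enzalutamide in red (81 to 85). Lines are the mean of each treatment and bars 1 SD. The red points lie above all blue points for DUSP1, DUSP5, DUSP6 and SPRY4, and mostly below them for SPRED1 and SPRED2.

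SPRY4, DUSP5, DUSP1 and SPRY1 were higher with enzalutamide, SPRED1 and SPRED2 were lower, and DUSP4 and SPRY2 did not pass the test. Thus 4 of the 8 tested genes were higher, beside 29.8% of all genes, and 2 were lower, beside 32.7%. A fitted change of at least 2-fold was reached by 2 of the 8, SPRY4 and DUSP5, beside 7.45% of all tested genes. The median log2 fold change of the 8 was 0.22, beside -0.01 for all genes. The libraries of the treatments did not overlap for 3 of the 8 tested genes (DUSP1, DUSP5 and SPRY4) and for DUSP6 among the untested, beside 37.2% of the tested genes. Fold changes are on the scale of log2(CPM + 0.5), which understates the change of genes with few reads.

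**Figure D2:**
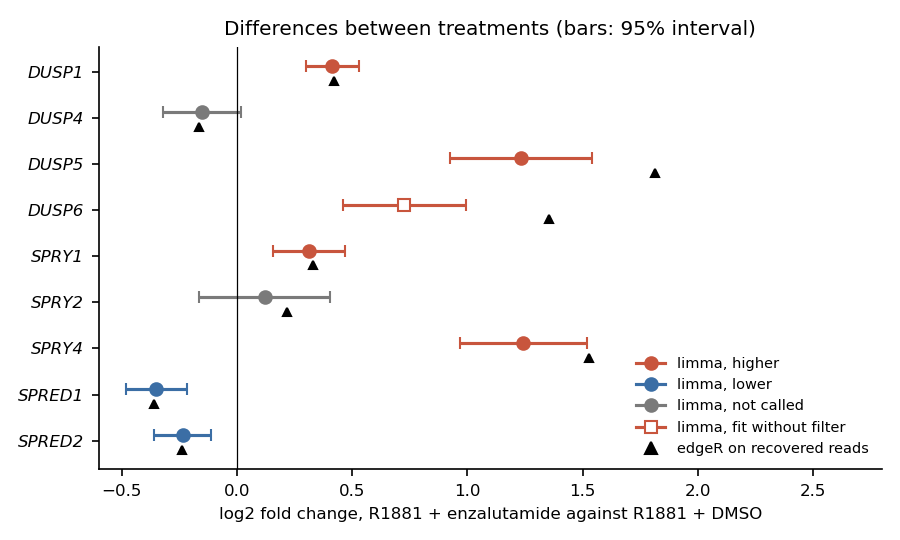
Log2 fold change of R1881 + enzalutamide against R1881 + DMSO (x axis, log2 scale) for the 9 genes, as the limma estimate on log2(CPM + 0.5) with its 95% interval and as the edgeR estimate on reads (triangles). The intervals of DUSP4 and SPRY2 span 0. The triangles lie farther from 0 than the limma estimates for DUSP5 (1.82 against 1.23), DUSP6 (1.35 against 0.73) and SPRY4 (1.53 against 1.24).

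Among the phosphatases, DUSP1 was the most abundant and rose with enzalutamide. DUSP1 (chr5:172768096-172771195, minus strand, 4 exons) encodes a nuclear phosphatase that acts on p38, JNK and ERK and is induced rapidly by stress and mitogens. Its expression with DMSO was lowest at 14.8 CPM, with a median of 16.5 CPM and a highest value of 17.4 CPM. With enzalutamide the libraries gave 20.7, 20.6, 24.4, 21.6 and 22.2 CPM in replicates 1 to 5. All 5 of these libraries lay above all 10 DMSO libraries, and the mean rose from 16.3 ± 1.00 (SD, n = 10) to 21.9 ± 1.55 CPM (SD, n = 5). The log2 fold change was 0.41 (SE 0.055, limma adjusted p = 1.51e-06). The annotation places 1 long noncoding RNA on the opposite strand of DUSP1, and the sources used here do not state whether counting used strand.

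DUSP5 showed the largest ratio of the phosphatases, from a low level. DUSP5 (chr10:110497907-110511533, plus strand, 4 exons) encodes a nuclear phosphatase selective for ERK, whose transcription is itself driven by ERK. With DMSO it ranged from 0.240 to 0.926 CPM, with a median of 0.600 CPM, which corresponds to 4 to 21 reads per library. With enzalutamide the values were 1.35, 2.42, 2.32, 2.16 and 1.61 CPM, or 29 to 52 reads. The groups did not overlap, and the lowest enzalutamide library was above the highest DMSO library. The mean rose from 0.554 ± 0.207 (SD, n = 10) to 1.97 ± 0.468 CPM (SD, n = 5), a ratio of 3.56, while the log2 fold change with the pseudocount was 1.23 (SE 0.149, limma adjusted p = 3.46e-07).

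DUSP6 had the lowest mean CPM of the members with DMSO, while with enzalutamide the mean of SPRY2 was lower (0.739 against 0.839 CPM). DUSP6 (chr12:89347235-89352501, minus strand, 3 exons) encodes a cytoplasmic phosphatase selective for ERK and is widely used as a transcript marker of ERK activity. With DMSO it ranged from 0.0968 to 0.573 CPM with a median of 0.341 CPM, which is 2 to 13 reads per library. With enzalutamide it gave 0.838, 0.698, 0.819, 0.898 and 0.941 CPM, or 15 to 24 reads. The groups did not overlap, although the highest DMSO library rests on 13 reads and the lowest enzalutamide library on 15. In the fit over all 17272 genes without the filter, in which 30.4% of genes were higher, its log2 fold change was 0.73 (SE 0.128, limma adjusted p = 4.99e-05). The ratio of the means was 2.62, and edgeR on the reads gave a log2 fold change of 1.35 (adjusted p = 6.86e-05). DUSP6 also has 1 long noncoding RNA on the opposite strand.

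Among the tested phosphatases only DUSP4 had no call, and it was the only one of the 4 with a lower mean under enzalutamide. DUSP4 encodes a nuclear phosphatase for ERK and JNK that is related to DUSP1. With DMSO it ranged from 7.02 to 9.10 CPM with a median of 8.54 CPM, and with enzalutamide it gave 6.61, 7.95, 8.41, 7.28 and 6.51 CPM. The groups overlapped, with 2 of the 5 enzalutamide libraries below all DMSO libraries. The log2 fold change was -0.15 (95% interval -0.32 to 0.02, limma adjusted p = 0.107), so a decrease within this interval was not told from the spread between libraries. Against DMSO libraries 71 to 75 alone the change was -0.21 (limma adjusted p = 0.0495), against libraries 51 to 55 alone -0.10 (adjusted p = 0.399), and with library totals made equal -0.06 (adjusted p = 0.507).

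Among the Sprouty genes, whose products bind adaptor proteins at growth factor receptors and dampen the signal to RAS, SPRY4 rose the most. SPRY4 (chr5:142310427-142326455, minus strand) gave 0.599 to 1.74 CPM with DMSO, with a median of 1.16 CPM and 10 to 36 reads per library. With enzalutamide it gave 3.49, 3.40, 2.96, 2.79 and 3.57 CPM, or 62 to 91 reads. All 5 enzalutamide libraries were above all 10 DMSO libraries with no value near the other group. The mean rose from 1.10 ± 0.324 (SD, n = 10) to 3.24 ± 0.347 CPM (SD, n = 5), a ratio of 2.94, and the log2 fold change was 1.24 (SE 0.132, limma adjusted p = 5.78e-08). SPRY4 overlaps 3 annotated genes on the opposite strand, among them the long noncoding RNA SPRY4-AS1.

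SPRY1 (chr4:123396795-123403760, plus strand) was the most abundant of the 3 Sprouty genes and rose less. It ranged from 5.79 to 7.91 CPM with DMSO, with a median of 6.63 CPM. With enzalutamide it gave 8.52, 7.86, 8.05, 9.07 and 7.92 CPM, so 4 of 5 libraries lay above all DMSO libraries. The overlap came from a single DMSO library, replicate 7, and the next highest DMSO library was at 7.36 CPM. The mean rose by 25.5%, with a log2 fold change of 0.31 (SE 0.075, limma adjusted p = 0.00117).

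SPRY2 (chr13:80335976-80341126, minus strand) was low in both groups. It ranged from 0.424 to 0.926 CPM with DMSO (8 to 21 reads) and gave 0.559, 0.465, 1.00, 0.808 and 0.863 CPM with enzalutamide (10 to 22 reads). The groups overlapped over nearly their whole range. The log2 fold change was 0.12 (95% interval -0.16 to 0.41, limma adjusted p = 0.46), so at this depth neither a small rise nor a small fall could be told from no difference. The estimates of SPRY4 and SPRY2 have intervals that do not meet (0.97 to 1.52 for SPRY4), but the difference between the genes was not tested.

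The SPRED genes moved the other way. SPRED1 and SPRED2 encode membrane proteins related to Sprouty that bring neurofibromin, the RAS inactivator encoded by NF1, to RAS at the membrane. SPRED1 (chr15:38252836-38357249, plus strand, 7 exons) ranged from 16.6 to 21.5 CPM with DMSO, with a median of 19.6 CPM. With enzalutamide it gave 14.7, 13.6, 15.6, 16.9 and 14.7 CPM. Of these libraries 4 of 5 lay below all DMSO libraries, and the mean changed from 19.4 ± 1.499 (SD, n = 10) to 15.1 ± 1.25 CPM (SD, n = 5). The log2 fold change of SPRED1 was -0.35 (SE 0.063, limma adjusted p = 5.93e-05).

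SPRED2 (chr2:65310851-65432637, minus strand, 6 exons) ranged from 18.4 to 23.2 CPM with DMSO, with a median of 20.01 CPM. With enzalutamide it gave 17.0, 14.8, 16.2, 17.3 and 18.8 CPM. Again 4 of 5 libraries lay below all DMSO libraries, and the remaining one, replicate 5, lay within their range. The log2 fold change was -0.24 (SE 0.060, limma adjusted p = 0.00184), and the mean decreased by 15.4%. With library totals made equal the log2 fold change was -0.14 (limma adjusted p = 0.0343). NF1 itself was at 149 CPM with DMSO and 157 CPM with enzalutamide and did not pass the test (limma adjusted p = 0.171). SPRED2 shares its strand with 1 overlapping long noncoding RNA, so reads there cannot be told apart by strand.

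Per kilobase of annotated exon, the level of DUSP1 was the highest in both groups, at 8.11 ± 0.496 CPM per kb with DMSO and 10.9 ± 0.771 with enzalutamide (mean ± SD). With DMSO it was followed by SPRED2 at 3.62 CPM per kb, SPRED1 at 2.50, SPRY1 at 1.67 and DUSP4 at 1.13, and the ranges of these 5 genes did not overlap. DUSP5 at 0.218 CPM per kb, SPRY2 at 0.199, SPRY4 at 0.168 and DUSP6 at 0.0828 followed, and each overlapped its neighbour in this order. With enzalutamide SPRY1 (2.09 CPM per kb) and SPRED1 (1.95) were no longer ordered as with DMSO and their ranges overlapped. DUSP5, at 0.777 CPM per kb, overlapped both DUSP4 at 1.01 and SPRY4 at 0.494, and the lowest levels were those of SPRY2 at 0.230 and DUSP6 at 0.217, which overlapped. With the length of the canonical transcript in place of all exons, SPRY2 (0.280 CPM per kb with DMSO) stood before SPRY4 (0.225) and DUSP5 (0.224), and SPRED1 (2.67) and SPRY1 (2.54) lay closer together, so the order among the low genes and the gap between these 2 depend on the length used.

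**Figure D3:**
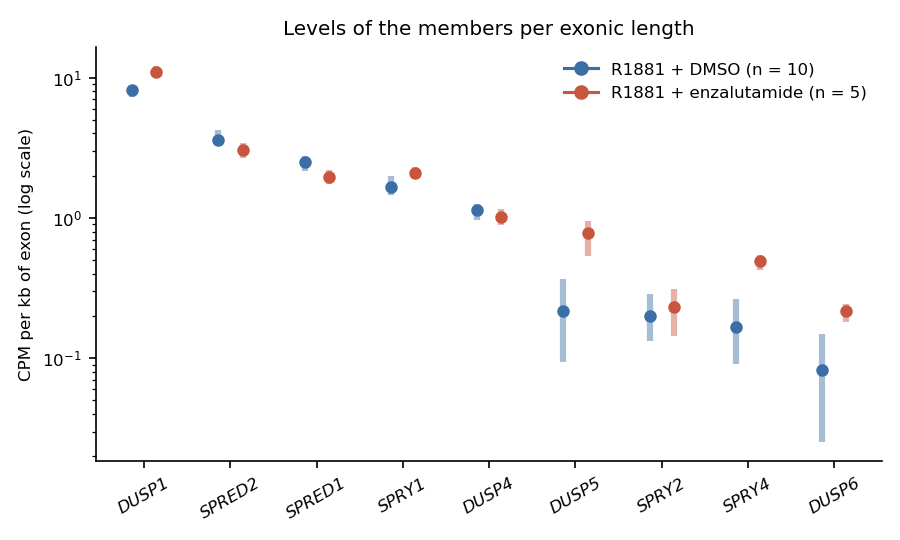
Level of the 9 genes in CPM per kb of annotated exon (log axis), ordered by the mean with R1881 + DMSO (blue, n = 10), beside R1881 + enzalutamide (red, n = 5). Points are means and bars run from the lowest to the highest library. DUSP1 is highest in both groups, and the blue bars of DUSP5, SPRY2, SPRY4 and DUSP6 overlap from neighbour to neighbour.

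Within R1881 + DMSO, the libraries numbered 71 to 75 were compared with those numbered 51 to 55 to give the size of differences at 1 treatment. Of the 17046 genes 3.71% passed the threshold between these series, and none of the 8 tested members did, while 4105 genes and 1 member, SPRED1, had an unadjusted p under 0.05. SPRED1 was at 16.6 to 20.5 CPM in libraries 71 to 75 and 19.2 to 21.5 CPM in libraries 51 to 55, a log2 difference of -0.14 (limma adjusted p = 0.206). Against libraries 71 to 75 alone the SPRED1 change with enzalutamide was -0.28 (limma adjusted p = 0.0039), and against libraries 51 to 55 alone it was -0.42. For DUSP5 this difference was 0.08 and for SPRY4 it was -0.16, against 1.23 and 1.24 between the treatments.

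The nearest relatives outside the 9 genes were split. Of 8 paralogs, 4 were higher (SPRY3, DUSP16, DUSP8 and SPRED3), 3 were lower (DUSP2, DUSP10 and DUSP7) and DUSP9 did not pass the test, with a median log2 fold change of 0.03. SPRY3, the remaining Sprouty gene, rose from 4.85 to 9.27 CPM with a log2 fold change of 0.88 (SE 0.119, limma adjusted p = 1.82e-06). DUSP16, a phosphatase for JNK, rose from 117 to 154 CPM (log2 fold change 0.40), and DUSP8, also directed at JNK and p38, from 15.3 to 19.6 CPM (0.35). SPRED3, unlike SPRED1 and SPRED2, was higher, at 3.12 against 2.28 CPM (0.37). DUSP2, a nuclear phosphatase first known from lymphocytes, changed by -0.58, DUSP10, a phosphatase for p38 and JNK, by -0.32, and DUSP7, a cytoplasmic ERK phosphatase close to DUSP6, by -0.29.

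In the cascade these genes restrain, 8 of 19 core genes were lower, 5 higher and 6 did not pass the test, with a median log2 fold change of -0.04. The ERK substrate kinase genes RPS6KA3 (-0.71) and RPS6KA1 (-0.40), HRAS (-0.50) and MAP2K1 (-0.49), which encodes MEK1, were the largest decreases. The increases included the adaptor and exchange factor genes GAB1 (0.69), SOS2 (0.50), SOS1 (0.30) and GRB2 (0.27). With library totals made equal the split became 6 lower and 8 higher, and the call of ARAF was among those lost.

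Of 15 measured genes of other negative regulators of RAS and ERK signalling, 7 were higher, 4 lower and 4 did not pass the test (median 0.08). The lower ones included the largest changes among the lists of signalling genes: ERRFI1, an inhibitor of the EGF receptor, fell from 170 to 31.6 CPM (log2 fold change -2.40) and LRIG1, which promotes loss of that receptor, from 248 to 57.2 CPM (-2.11). CBL (-0.18) and PEBP1 (-0.16) were also lower. IL17RD, a membrane antagonist of FGF signalling, rose from 8.31 to 20.04 CPM (1.22), and CBLB (0.56), RASAL2 (0.45) and DAB2IP (0.40) rose less. SPRED3 belongs to this list as well as to the paralogs.

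Of 6 measured genes of ERK transcriptional output outside the 9, 3 were lower and 3 higher (median 0.10). ETV1 (-0.43), HBEGF (-0.39) and CCND1 (-0.16) were lower and EPHA2 (0.87), PHLDA1 (0.39) and MYC (0.36) higher. The other 7 genes of this list, among them ETV4, ETV5 and FOSL1, were not analysed here. Of 10 measured immediate early genes, KLF4 (-1.32), KLF6 (-0.51), EGR1 (-0.34), ZFP36 (-0.27) and ATF3 (-0.22) were lower, and FOSB (0.48), IER2 (0.35), JUN (0.34) and JUND (0.20) higher, with a median of -0.01. JUNB did not pass the test. Of the tested genes of ERK output and the immediate early genes, only JUN, MYC and ETV1 also differed between the DMSO number series. The higher-numbered series differed by 0.31, 0.22 and -0.15 in log2 (limma adjusted p = 0.0256, 0.0272 and 0.0324). For JUN this was close to its change with enzalutamide, whose libraries (46.1 to 54.5 CPM) overlapped that series (37.6 to 51.9 CPM). For MYC and ETV1 the treatments did not overlap.

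Among 11 genes of JNK and p38 kinases, 2 were lower, 2 higher and 7 did not pass the test (median 0.04). MAP2K4, an activator of JNK and p38, fell from 155 to 77.4 CPM (-1.001), and MAPK11, a p38 gene, changed by -0.62. MAP2K6, an activator of p38, rose from 5.72 to 9.54 CPM (0.69) and the p38 gene MAPK13 by 0.44. Of 7 measured genes of FGF receptors, ligands and their adaptor, which act upstream of Sprouty feedback, FGFR3 was lower (4.67 to 1.32 CPM, -1.51), FRS2 (0.36) and FGF7 (0.30) were higher, and 4 did not pass the test (median -0.17). In none of these lists was a called gene reversed by another scaling of the libraries. With library totals made equal CBL, CCND1, EGR1 and ZFP36 lost their calls and NF1, MAPK9 and MAPK14 passed as higher, and with TMM factors ZFP36 lost its call and MAPK14 passed, as it did with median-ratio factors.

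**Figure D4:**
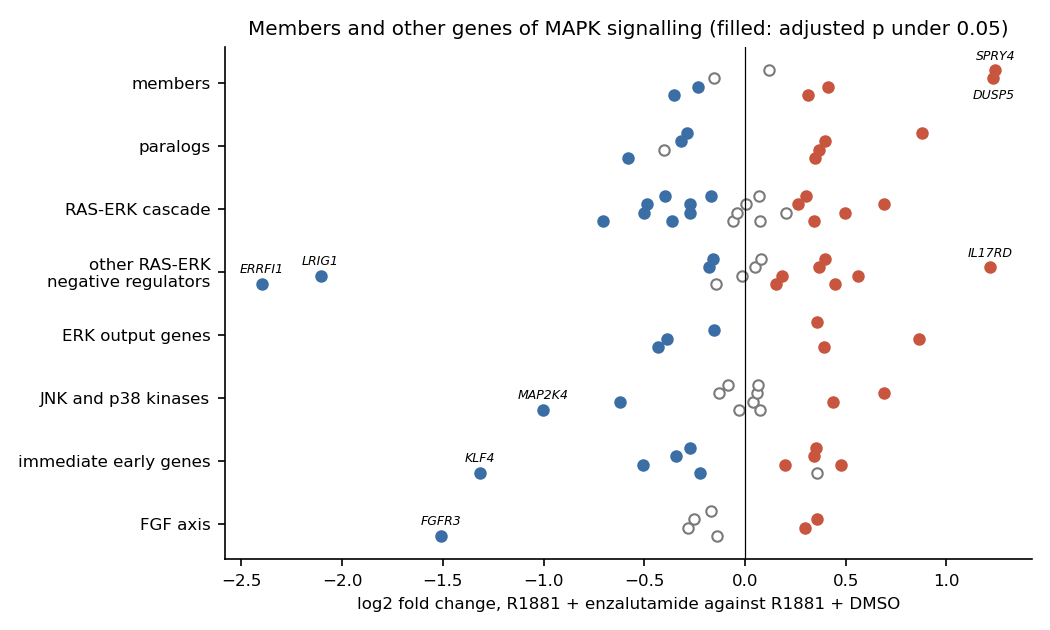
Log2 fold change of R1881 + enzalutamide against R1881 + DMSO (x axis, log2 scale) of single genes in 8 lists (y axis), for tested genes only. Filled points passed the threshold (red higher, blue lower), open points did not, and the labels name the genes at the ends. Each list has points on both sides of 0, and ERRFI1 and LRIG1 lie farthest to the left.

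The genes most like SPRY4 and DUSP5, the members with the largest fold changes, were sought by Pearson correlation of the deviations from the treatment means over 15 libraries among 12164 genes. For SPRY4 they were TMEM185A (r = 0.79), PRKACA (0.73) and GATS (0.73). For DUSP5 they were FANCA (0.80), BAIAP2L1 (0.74) and RP11-365O16.1 (0.74). FANCA, BAIAP2L1 and RP11-365O16.1 were lower with enzalutamide, with log2 fold changes of -0.82, -0.30 and -0.94, whereas DUSP5 was higher, so this likeness lies within the treatments and describes these libraries only. SPRY4 and DUSP5 rest on few reads, and how high the best of 12164 correlations would be by chance was not tested.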

How the data were processed

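RNA of 15 LNCaP libraries was measured from single-end reads of a stranded mRNA kit. The authors aligned the reads to GRCh38 with STAR and ran featureCounts, and bcl2fastq 2.17 is named in the submitters' processing notes. The deposited values are a normalized signal per gene, called CPM by the authors. Their columns sum to between 1053406 and 1078567 with DMSO and between 985580 and 1008992 with enzalutamide. These totals do not overlap between the treatments, so the deposited genes do not add up to a common total. Whether the scale of the values differs with the treatment cannot be read from the totals alone. For the annotation, the strand setting and the scaling rule, the sources used here give nothing. Every value was a whole multiple (100%, tolerance 0.01 reads) of 1 read, so reads were recovered. No 2 libraries of a treatment agreed within sampling noise (lowest chi-square per degree of freedom 1.63 over 55 pairs). The methods call the libraries biological replicates without saying whether they came from separate cultures, and the labels give replicate numbers only, so p-values measure the spread between these libraries.

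Differences were tested in R 4.3.3 with limma 3.58.1 on log2(CPM + 0.5) of genes with a mean over all libraries of at least 0.5 CPM (trended prior, treatment as the only term, Benjamini-Hochberg over all genes tested, threshold 0.05), as designed for CPM, with the signal kept as deposited. Alternatives were pseudocounts, filters, scalings, edgeR 4.0.16, DESeq2 1.42.0, a replicate block, each DMSO series alone and each library left out. The fit was tested on simulated data. The members and lists were chosen with earlier results of these data known. Named are the members, up to 4 called genes per direction and list with mean CPM of at least 5, check genes, and the 3 genes most like each of the 2 members that changed most. GRB2, ARAF, HBEGF, EPHA2, PHLDA1, KLF4, EGR1, FOSB, FGFR3, FGF7, SPRED3, LUM, KRT14 and genes without a call were named after their values were seen, and a few genes of the lists are not reported here. Positions are from GENCODE v44 and motifs were searched in RefSeq windows.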

Additional observations from a re-analysis of the deposited data

Results flagged for a closer look

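In 1 of 18 groups examined (9 genes in each treatment), a single library stood apart from the rest of its group, where chance gives about 1 in 20, or 0.9. SPRED2 in R1881 + DMSO replicate 7 was at 23.2 CPM, the highest of the 10, and the nearest other library was at 20.5 CPM. The gap was 0.558 of the range of the group, beyond Dixon's 95% critical value for 10 libraries. The same library was also the highest of its group for SPRY1 and DUSP1 and the lowest for DUSP5 (0.240 CPM) and SPRY4 (0.599 CPM). Leaving out each library in turn moved the SPRED2 log2 fold change between -0.28 and -0.19, and it stayed past the threshold in each case.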

How the results depend on the processing

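Of 238 alternative values of the members' fold changes, 236 kept their direction and side of the threshold and 0 reversed. Both exceptions were DUSP4, which passed the threshold with a replicate block (-0.24, adjusted p = 0.0264) and against DMSO libraries 71 to 75 alone (-0.21, adjusted p = 0.0495; -0.10 and 0.399 against 51 to 55), so that 3 members were lower. The block changed no other call of a member. Between same-numbered libraries, deviations from the treatment means correlated over genes at -0.068 to 0.074. No enzalutamide library was closest to its own number, so the numbers were not taken to pair libraries. With a filter at a mean CPM of at least 5, 2 members were higher in place of 4, since DUSP5 and SPRY4 were not tested, and without a filter 5 were, DUSP6 being added. Leaving out each library in turn kept 4 higher and 2 lower. Over all other alternatives DUSP5 ranged from 0.93 to 1.83, DUSP6 from 0.49 to 1.37, SPRY4 from 1.02 to 1.53, DUSP4 from -0.24 to -0.06 and SPRED2 from -0.27 to -0.14, the last with library totals made equal (adjusted p = 0.0343). Genes called in all numbered 8297 to 10917. With library totals made equal, 60.7% of called genes were higher, against 47.7% as deposited, and the median of all genes moved from -0.01 to 0.07. With median-ratio factors 49.1% were higher and the median was -0.004, and with TMM factors 49.8% and 0.0005. Low read counts limit DUSP5, DUSP6, SPRY2 and SPRY4.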
